A study of Mus musculus with 7 samples.

Results

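The leukocytes of a mouse brain tumour were compared between 1 library from mice given an agonist antibody against CD40 and 1 library from mice given an isotype control antibody, the control library with the next consecutive library number. The members were the barcodes with at least 1000 unique molecular identifiers (UMIs), at least 500 genes, at most 15% mitochondrial UMIs and at least 1 UMI of Ptprc, which encodes the pan-leukocyte antigen CD45. There were 2231 such cells, 1399 under the CD40 agonist and 832 under the isotype, of 16329 filtered cells in the 2 libraries. The whole series, 7 libraries of 10x droplet 3′ RNA sequencing, held 11582 leukocytes among 51795 filtered cells. With 1 library a group the comparison has no replicate, so no test was made, and every interval given is a 95% interval that covers counting error only.

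Both groups were C57BL/6 mice of 7 to 10 weeks, labelled wild type, bearing intracranial tumours of NSCG, a mouse glioma line that carries mCherry and EGFRvIII and lacks Arf/Ink4a. The agonist group (CD40) received 100 µg of antibody a dose, 5 days apart, for 2 doses, and the labels do not say whether dendritic cell vaccination was part of it. The isotype group (IgG) received IgG2b at 10 mg/kg every 3 days by the intraperitoneal route for 3 rounds, so that antibody, dose and schedule all differ between the groups. Tumours were taken on about day 14, tumours of at least 2 mice were pooled in each library, whole tumour digests were loaded without sorting, and 6000 cells were aimed for. A second isotype library, IgG replicate 1, came from another numbered run of libraries and is given beside the results as a measure of how far isotype libraries can lie apart. Transcripts of Xist and of the Y-linked Ddx3y were present in the leukocytes of all 3 libraries, at 639, 665 and 415 CPM (UMIs per 1000000 UMIs of the summed cells) and 12.6, 10.8 and 5.31 CPM (CD40, IgG replicate 2, IgG replicate 1).

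CD40 is a receptor of the tumour necrosis factor receptor family, carried by B cells, dendritic cells, macrophages and microglia, and its ligand CD40L (gene Cd40lg) is shown mainly by activated CD4 T cells. Engagement of CD40 recruits TRAF adaptors and activates NF-kB, and antigen-presenting cells licensed in this way raise MHC molecules, costimulatory ligands and cytokines that support T-cell responses. MHC class II presents peptides to CD4 T cells and depends on the transactivator CIITA, while MHC class I presents to CD8 T cells and is driven by NF-kB, interferon factors and the CIITA relative NLRC5.

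The upstream sequences of the genes on which the myeloid comparison turned are shown first, because these genes lay on opposite sides of the comparison; their motifs are in part shared. Each sequence is the 250 bases before the transcription start, 5′ to 3′ on the gene's strand, from the RefSeq promoter table (GRCm38.p6). Sequences are given for 5 of the 8 genes considered. H2-Aa (chr17:34287824-34288073, minus strand) and H2-Eb1 (chr17:34305617-34305866, plus strand) encode the alpha chain of I-A and the beta chain of I-E, both MHC class II. H2-D1 (chr17:35262844-35263093, plus strand) and H2-K1 (chr17:34000348-34000597, minus strand, the first of 2 starts) encode classical MHC class I heavy chains. Isg15 (chr4:156200819-156201068, minus strand) encodes an interferon-induced ubiquitin-like protein. Capitals mark every match of 3 motifs, searched on both strands and chosen after the sequences had been read.
H2-Aa: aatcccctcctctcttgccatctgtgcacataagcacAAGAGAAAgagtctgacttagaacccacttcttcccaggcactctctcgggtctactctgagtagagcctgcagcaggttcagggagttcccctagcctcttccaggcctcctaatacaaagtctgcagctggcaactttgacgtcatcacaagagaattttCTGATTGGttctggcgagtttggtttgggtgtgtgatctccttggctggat
H2-Eb1: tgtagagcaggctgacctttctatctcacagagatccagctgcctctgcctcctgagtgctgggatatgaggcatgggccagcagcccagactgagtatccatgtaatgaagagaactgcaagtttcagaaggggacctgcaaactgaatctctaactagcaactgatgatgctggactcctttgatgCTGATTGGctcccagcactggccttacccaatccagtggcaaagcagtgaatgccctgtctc
H2-D1: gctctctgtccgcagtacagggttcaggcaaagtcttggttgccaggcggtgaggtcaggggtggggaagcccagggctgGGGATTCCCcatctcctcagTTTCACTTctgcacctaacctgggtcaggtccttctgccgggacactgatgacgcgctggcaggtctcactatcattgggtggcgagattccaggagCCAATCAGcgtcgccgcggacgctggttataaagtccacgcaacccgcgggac
H2-K1: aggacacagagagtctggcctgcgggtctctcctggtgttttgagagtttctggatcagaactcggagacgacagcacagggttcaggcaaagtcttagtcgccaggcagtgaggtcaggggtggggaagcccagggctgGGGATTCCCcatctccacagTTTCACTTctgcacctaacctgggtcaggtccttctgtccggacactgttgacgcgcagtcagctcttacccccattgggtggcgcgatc
Isg15: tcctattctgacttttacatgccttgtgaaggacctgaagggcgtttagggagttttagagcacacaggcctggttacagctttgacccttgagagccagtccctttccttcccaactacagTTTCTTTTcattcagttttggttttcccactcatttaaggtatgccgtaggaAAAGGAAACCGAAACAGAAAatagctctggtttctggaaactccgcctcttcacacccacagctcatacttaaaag
The Y box CTGATTGG, part of the class II promoter module, lay 51 to 44 bases before the start of H2-Aa and 62 to 55 before that of H2-Eb1. It was also in H2-D1, on the opposite strand as CCAATCAG, 53 to 46 bases before the start. The kappaB site GGGATTCCC, which NF-kB factors bind, lay 170 to 162 bases before H2-D1 and 110 to 102 before H2-K1. The interferon regulatory factor (IRF) core AANNGAAA followed it in both, on the opposite strand, at 150 to 143 and 90 to 83, and was also in H2-Aa at 213 to 206. In Isg15 that core had 4 matches, 3 of them overlapping, at 76 to 69, 70 to 63 and 64 to 57 bases before the start, and 1 on the opposite strand at 128 to 121. Of 32851 promoters of this length in the table, 3.83% held the Y box, 0.301% the kappaB site and 21.3% the IRF core, with 4 or more matches of it in 0.140%. The motifs do not overlap one another, but the 3 neighbouring IRF matches of Isg15 overlap by 2 bases each. A match is a run of letters and says nothing of binding in these cells.

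The libraries compared were close in depth, and the second isotype library was shallower. Total UMIs were 156486731 (CD40), 163581082 (IgG replicate 2) and 95575099 (IgG replicate 1), and the median UMI count of a leukocyte was 9159, 8488 and 4407. CD40 and IgG replicate 2 shared 26 filtered cell barcodes, none of them in leukocytes. IgG replicate 1 stood apart from IgG replicate 2 in make-up and in many genes, so that a difference between CD40 and IgG replicate 2 can lie inside the range of the 2 isotype libraries, and the value of IgG replicate 1 is given beside it.

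Leukocytes were 16.8% of filtered cells under the CD40 agonist (1399 of 8323, interval 16.0 to 17.6) and 10.4% under the isotype (832 of 8006, interval 9.73 to 11.1). IgG replicate 1 had 4.83% (302 of 6257, interval 4.31 to 5.39), so the CD40 library lay above both isotype libraries. A share of cells can reflect more leukocytes or fewer tumour cells, and these cannot be told apart in a digest.

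Cells were then gated on raw UMIs. T cells had at least 2 UMIs of Cd3d, Cd3e and Cd3g together. B cells had at least 2 UMIs of Cd79a, a part of the B-cell receptor. Myeloid cells had at least 5 UMIs of Lyz2, C1qa and C1qb together and no Cd3 UMI. These gate genes are therefore no findings. T cells were 11.3% of leukocytes under CD40 (158 cells, interval 9.68 to 13.1) and 6.37% under IgG replicate 2 (53 cells, interval 4.81 to 8.25), with 12.3% in IgG replicate 1 (37 cells). B cells were 3.93% (55 cells, interval 2.98 to 5.09) and 1.08% (9 cells, interval 0.496 to 2.04), with 1 cell in IgG replicate 1. Myeloid cells were 73.1% (1023 cells) and 84.3% (701 cells), with 55.3% in IgG replicate 1 (167 cells). As a share of leukocytes, then, the CD40 library lay above both isotype libraries in B cells alone, and between them in T and myeloid cells. With cells thinned to 1000 UMIs the B share differed by -0.00907 percentage points from IgG replicate 2, and with no Ptprc requirement by 1.18 (interval -0.925 to 3.20). The T share differed by 4.92 points, and by 2.77 with cells thinned to 1000 UMIs, with an interval that includes 0 (-1.64 to 6.70).

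Set against all filtered cells, every gate was larger under CD40 than in either isotype library. T cells were 1.90% of filtered cells (interval 1.62 to 2.22) against 0.662% (interval 0.496 to 0.865) and 0.591% in IgG replicate 1. B cells were 0.661% against 0.112% and 0.0160%. Myeloid cells were 12.3% against 8.76% and 2.67%, so the lower myeloid share of leukocytes went with a higher myeloid share of the digest. In the untreated library of the series, T cells were 5.30% of filtered cells, B cells 0.640% and myeloid cells 9.47%. There were 15.4 T cells for every 100 myeloid cells under CD40, 7.56 in IgG replicate 2 and 22.2 in IgG replicate 1. The gates overlapped little: 2 CD40 cells were in both the T and the B gate, and 1 CD40 and 4 isotype cells were in both the B and the myeloid gate.

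**Figure D1:**
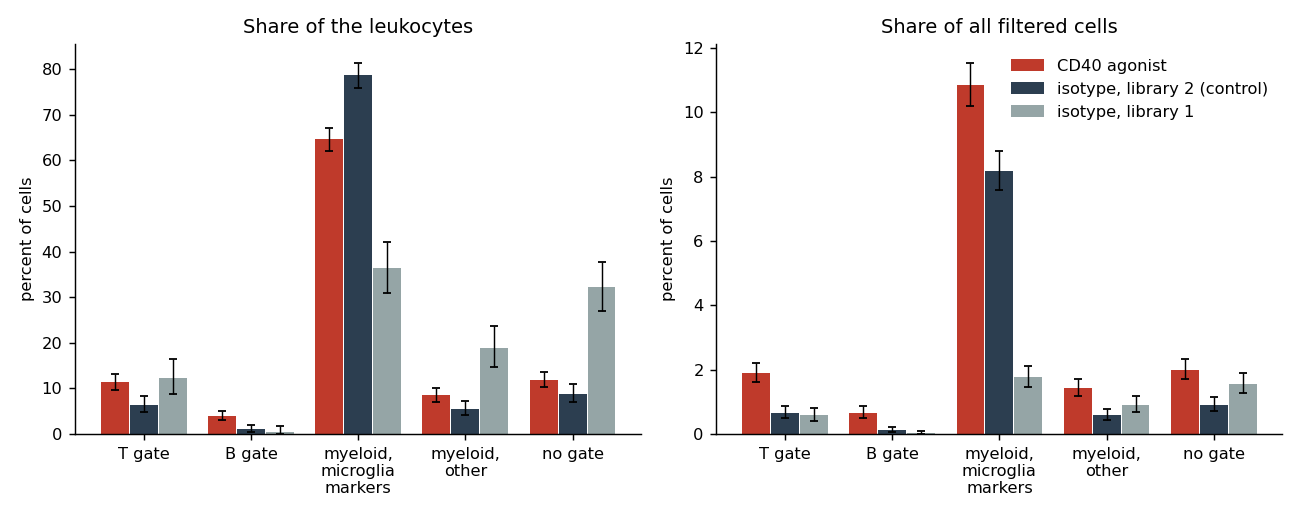
Percent of leukocytes (left) and of all filtered cells (right) in each gate, for the CD40 library and the 2 isotype libraries; bars are shares and whiskers exact 95% binomial intervals. T, B and microglia-marker cells are all highest in the CD40 library as a share of filtered cells, while its T and microglia-marker shares of leukocytes lie between those of the isotype libraries.

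Most myeloid cells carried microglial transcripts. Microglia, the resident macrophages of the brain, were marked by at least 2 UMIs of P2ry12, Tmem119 and Siglech together. They were 904 of 1023 myeloid cells under CD40 (88.4%), 655 of 701 under IgG replicate 2 (93.4%) and 110 of 167 in IgG replicate 1 (65.9%). All 10 genes of the microglial marker list were detected in this gate in every one of the 3 libraries, with sums of 6470, 6873 and 4901 CPM. P2ry12, Tmem119 and Siglech are in that list, so their detection was fixed by the gate. All 10 were also detected in non-leukocytes of each library, at sums of 334, 318 and 95.3 CPM. In the microglia-marker cells the defining T-cell receptor genes Cd3d, Cd3e and Cd3g were at 0, as the gate requires. Markers of tumour cells summed to 586, 534 and 493 CPM in them. Endothelial markers (all 7 genes detected in the 2 libraries compared, with Cdh5, Ly6c1 and Slco1a4 at 0 in IgG replicate 1) summed to 120 CPM under CD40, 46.5 in IgG replicate 2 and 30.3 in IgG replicate 1, and their part in the results below was not tested.

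The clearest difference in the microglia-marker cells was in MHC class II. H2-Aa was at 219 CPM of summed UMIs under CD40, 14.1 in IgG replicate 2 and 84.9 in IgG replicate 1, which is 15.5-fold higher than in IgG replicate 2 (interval 13.04 to 18.6). H2-Ab1, the beta chain of the same I-A molecule, was at 245, 36.0 and 83.9 CPM, 6.81-fold higher (interval 6.09 to 7.63). Cd74, the invariant chain that escorts class II molecules to the endosome, was at 639, 146 and 233 CPM, 4.37-fold higher (interval 4.12 to 4.62). All 3 genes were higher under CD40 than in either isotype library, by a smaller margin over IgG replicate 1. H2-Aa lies at chr17:34282744-34287823 on the minus strand and H2-Ab1 at chr17:34257689-34269419 on the plus strand of GRCm38.

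Of the rest of the class II pathway, Ciita and H2-Eb1 differed at low counts and the loading genes differed less. Ciita, the class II transactivator, had 62 UMIs under CD40, 12 in IgG replicate 2 and 0 in IgG replicate 1, or 4.72 against 1.25 CPM in the 2 libraries compared (3.77-fold, interval 2.01 to 7.68). H2-Eb1 had 78 UMIs against 1 and 0 (56.9-fold, with a wide interval of 9.91 to 2274), at 5.94 CPM far below H2-Aa, as it was in every library of the series. The peptide-loading genes H2-DMa (90.8, 66.6 and 45.5 CPM) and H2-DMb1 (86.2, 67.0 and 50.5 CPM) were 1.36-fold and 1.29-fold higher. Ctss, the protease that trims the invariant chain, was at 2856, 2162 and 1710 CPM, 1.32-fold higher. All 11 class II genes compared lay above both isotype libraries, where 38.0% of all genes did, and their median log2 ratio was 0.45 against 0.03 over all genes. Of these 11, 5 were past 2-fold upward, where 2.29% of the 12910 genes compared were (at least 50 UMIs over the 2 libraries) and 0.612% were past 2-fold downward.

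The other libraries set a wide scale for these values. In the same gate H2-Aa was at 6692 CPM in the untreated library, 4411 and 613 in the libraries treated with antibodies against VEGF and PD-L1, and 628 in the library that also received a PI3K inhibitor. The CD40 value therefore lay above the 2 isotype libraries and below the other 4. The gate did not hold like cells in each library. At least 10 microglial UMIs were found in 728 of 904 gated cells under CD40, 556 of 655 in IgG replicate 2 and 62 of 110 in IgG replicate 1. In the other 4 libraries, in the order above, they were found in 54 of 150, 143 of 420, 54 of 133 and 39 of 153. The part of this in the H2-Aa levels was not tested.

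Class II transcripts sat in a minority of the microglia-marker cells. With every cell thinned to 2000 UMIs, 17.0% of CD40 cells (interval 14.6 to 19.6) had a UMI of H2-Aa, H2-Ab1 or H2-Eb1, against 5.38% (interval 3.77 to 7.40) in IgG replicate 2 and 4.67% (interval 1.53 to 10.6) in IgG replicate 1. Unthinned shares were 41.4%, 21.5% and 11.8%. In the same thinned measure, non-leukocytes had 1.26%, 0.478% and 0.298%, and T cells, which lack class II in mice, had 1.95% (3 of 154, interval 0.404 to 5.59), 0 of 51 (upper bound 6.98%) and 1 of 30 (upper bound 17.2%). Under CD40 the share in microglia-marker cells lay above both, and in the isotype libraries it lay above that of non-leukocytes but within the interval of the few T cells. The top 10% of cells held 90.7%, 84.2% and 98.8% of the trio's UMIs.

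A small set of cells carried most of it. Cells with at least 20 trio UMIs per 10000 numbered 34 under CD40 (3.76% of the gate), 3 in IgG replicate 2 (0.458%) and 2 in IgG replicate 1, and held 77.6%, 20.4% and 89.8% of the trio's UMIs. This is a cut through a continuous range, with 29, 5 and 1 cells within 2-fold of it. The 34 CD40 cells had a median of 17489 UMIs, against 9698.5 in the 870 cells below the cut. These 34 cells had less P2ry12 (72.3 against 770 CPM), Tmem119 (174 against 511 CPM) and Siglech (47.2 against 410 CPM). They had more Ccr2, a monocyte chemokine receptor (125 against 3.62 CPM). They also had more Mrc1, the mannose receptor of border macrophages (183 against 9.08 CPM), and more Itgax, which encodes CD11c (167 against 69.7 CPM), while Ms4a7, another macrophage gene, was lower (61.9 against 84.7 CPM). The cells below the cut still differed between libraries, with H2-Aa at 43.0 CPM under CD40, 10.3 in IgG replicate 2 and 4.11 in IgG replicate 1. With a stricter gate of at least 10 microglial UMIs, chosen after the data were seen, the thinned share was 15.0% against 4.32%, and 1.84% of genes were past 2-fold upward and 0.406% downward.

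**Figure D2:**
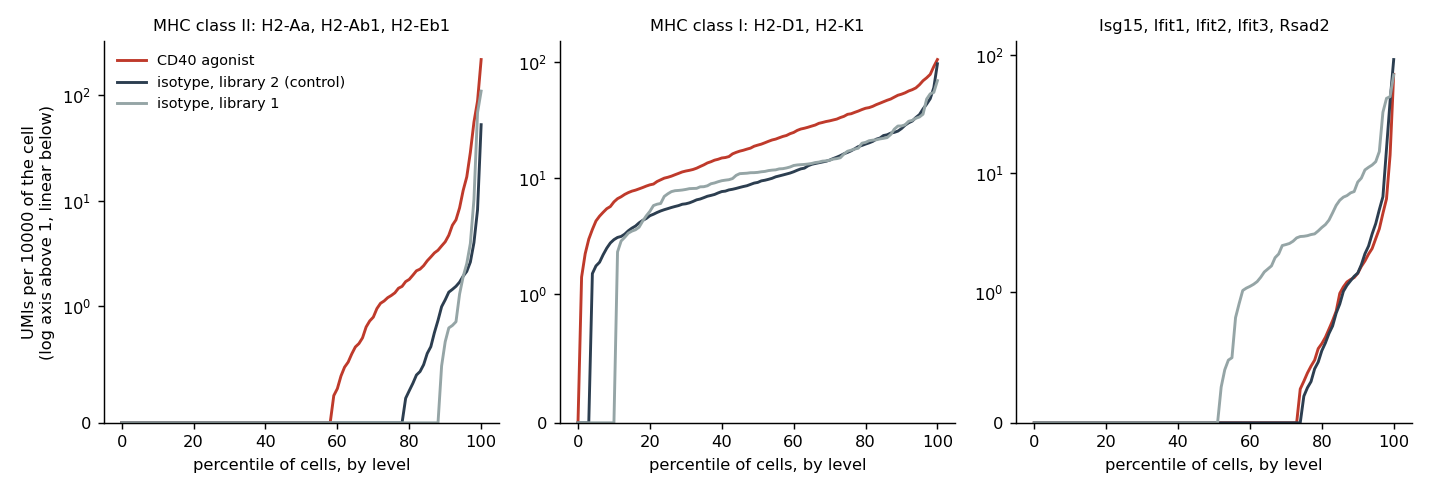
UMIs per 10000 UMIs of the cell (vertical axis, logarithmic above 1 and linear below) at each percentile of microglia-marker cells (horizontal axis), 1 line a library, for MHC class II, MHC class I and 5 interferon genes. The class II line of the CD40 library leaves 0 at a lower percentile than the isotype lines, its class I line lies above both almost throughout, and its interferon line follows isotype library 2 up to the upper tail.

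MHC class I was higher across the distribution of microglia-marker cells, and less than 2-fold in the summed UMIs of each gene of the list. H2-D1 was at 1744 CPM under CD40, 883 in IgG replicate 2 and 952 in IgG replicate 1, 1.97-fold higher (interval 1.93 to 2.02). H2-K1 was at 986, 563 and 636 CPM, 1.75-fold higher (interval 1.70 to 1.81), and B2m, the shared light chain, at 2195, 1461 and 1446 CPM, 1.502-fold higher. In all 3 genes the CD40 value lay above both isotype libraries, which were close to each other. The 2 heavy chains together had a median of 19.3 UMIs per 10000 in a CD40 cell (quartiles 10.2 and 35.5), against 9.18 (5.46 and 16.7) and 11.2 (7.33 and 17.1). Here the top 10% of cells held 36.8% and 39.3% of the UMIs in the 2 libraries compared, far less than for class II. In non-leukocytes the mean of the pair was 8.65, 6.51 and 7.72 per 10000, and the median was 5.15, 3.32 and 5.96, highest in IgG replicate 1.

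The class I list as a whole was mixed. Of 13 genes compared, 0 were past 2-fold, 10 were above a ratio of 1 and 5 lay above both isotype libraries (38.5%, near the 38.0% of all genes). The median log2 ratio was 0.24, and -0.26 against IgG replicate 1. Nlrc5, the class I transactivator, was at 19.97, 13.2 and 13.1 CPM, while the peptide transporter Tap1, at 29.1, 23.2 and 37.4 CPM, lay between the isotype libraries. H2-Q7, which is not in that list, is a non-classical class I gene with near-identical relatives that the counting can split, and was at 54.2, 21.7 and 43.5 CPM (2.49-fold).

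Some interferon genes lay the other way. Isg15 was at 44.2 CPM under CD40, 98.0 in IgG replicate 2 and 244 in IgG replicate 1, 2.22-fold lower than in IgG replicate 2 (interval 2.00 to 2.46). Rsad2, the antiviral protein viperin, was at 8.31, 38.4 and 80.8 CPM (4.62-fold lower, interval 3.72 to 5.77). The antiviral RNA-binding proteins Ifit1 (5.11, 12.2 and 27.3 CPM), Ifit2 (12.1, 28.3 and 54.6) and Ifit3 (7.39, 22.2 and 51.5) were 2.40-fold, 2.34-fold and 3.00-fold lower. In each of the 5 the CD40 library was the lowest of the 3. Of the 26 interferon genes compared, 12 lay below both isotype libraries (46.2%, against 27.7% of all genes), 5 were past 2-fold downward and 2 upward. Of the same 26, 14 were above a ratio of 1 and 12 below, and the median log2 ratio was 0.07 (-0.07 with the stricter microglia gate).

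The 2 that were higher, Cxcl9 and Gbp4, are genes more typical of interferon gamma. Cxcl9, a chemokine for activated T cells, had 171 UMIs under CD40 and 4 in IgG replicate 2, or 13.03, 0.418 and 3.03 CPM (31.2-fold, interval 12.0 to 116). Gbp4 was at 5.33, 2.20 and 1.01 CPM (2.43-fold). Cxcl10, which responds to both interferon types, was at 141, 157 and 355 CPM, and Irf7 at 10.97, 17.3 and 72.8 CPM. Thinned to 2000 UMIs, 8.11% of cells (interval 6.41 to 10.1), 10.3% (interval 8.07 to 12.9) and 25.2% had a UMI of the 5 lower genes, and the first 2 intervals overlap. With the stricter microglia gate the shares were 8.10%, 8.09% and 18.0%, and 2 genes of the list, Ifit3 and Rsad2, were past 2-fold downward. In the main gate the 99th percentile of cells was at 14.3, 41.0 and 44.6 UMIs per 10000. Non-leukocytes showed the same order, with 7.00%, 9.77% and 19.6% of cells at the same depth.

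**Figure D3:**
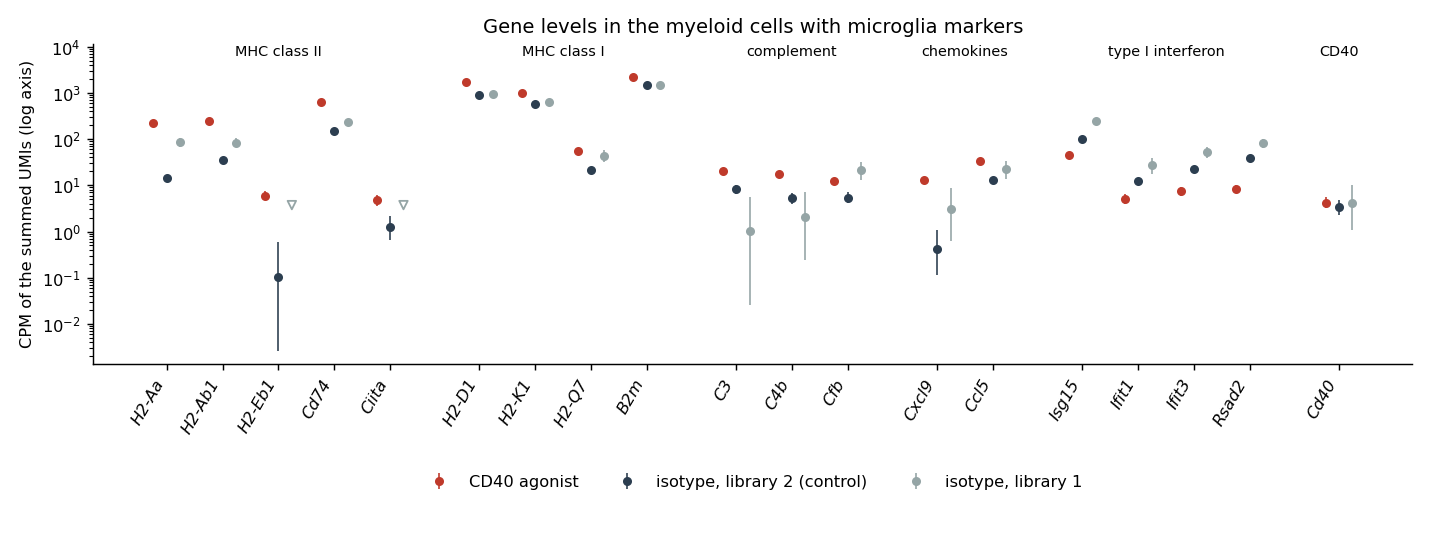
CPM of summed UMIs in microglia-marker cells (vertical axis, log scale) for single genes in the CD40 library and the 2 isotype libraries; points are levels, lines exact 95% Poisson intervals, and open triangles the upper bound of a gene at 0. CD40 points are the highest of the 3 for the class II and class I genes drawn and the lowest for Isg15, Ifit1, Ifit3 and Rsad2.

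Genes downstream of CD40 itself differed little from IgG replicate 2, most of them upward. Cd40 was at 4.19 CPM under CD40 (55 UMIs), 3.35 in IgG replicate 2 (32 UMIs) and 4.04 in IgG replicate 1 (4 UMIs), a ratio of 1.25 with an interval of 0.796 to 2.00 that includes 1. Birc3, an NF-kB-induced survival protein, was at 87.1, 62.5 and 54.6 CPM (1.39-fold higher), and Relb, a subunit of the non-canonical pathway, at 62.9, 51.5 and 51.5 CPM (1.22-fold). The feedback inhibitors Nfkbia (607, 540 and 377 CPM) and Tnfaip3 (165, 145 and 75.8 CPM) were 1.12-fold and 1.14-fold higher, and the adhesion molecule Icam1 (236, 231 and 126 CPM) 1.02-fold. The margins of Nfkbia, Tnfaip3 and Icam1 over IgG replicate 1 were larger. Of 21 genes of the CD40 and NF-kB list, 18 were above a ratio of 1 to IgG replicate 2, 0 were past 2-fold and the median log2 ratio was 0.16. Of the same 21, 15 lay above both isotype libraries (71.4%, against 38.0% of all genes). Bcl2a1b, a survival gene with near-identical copies, lay below both (190.1, 249 and 193 CPM). The costimulatory ligands Cd86 (347, 282 and 273 CPM) and Cd80 (18.3, 13.6 and 16.2 CPM) were 1.23-fold and 1.346-fold higher.

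Among complement and inflammatory genes, several were higher at low levels. C3, the central complement component, was at 20.5, 8.26 and 1.01 CPM (2.48-fold), and C4b at 17.2, 5.23 and 2.02 CPM (3.29-fold). For both, the CD40 library lay above the 2 isotype libraries. Cfb (12.6, 5.44 and 21.2 CPM) and Cfp (24.8, 7.84 and 34.4 CPM), of the alternative pathway, were 2.31-fold and 3.16-fold higher than in IgG replicate 2 but lower than in IgG replicate 1. These were the 4 past 2-fold of 12 complement genes compared, where 2.29% of all genes were past 2-fold upward. Saa3, an acute-phase protein, was at 9.37, 1.36 and 1.01 CPM (6.90-fold, interval 3.89 to 13.3), and Ccl5, a T-cell chemokine, at 33.7, 12.8 and 22.2 CPM (2.64-fold). Under CD40, Saa3 was at 79.6 CPM in the 34 cells highest in class II and 5.54 in the others. Of 15 inflammatory genes compared, these 2 were past 2-fold upward and 0 downward, and 7 lay above both isotype libraries (46.7%, against 38.0% of all genes). With the stricter microglia gate, Ccl5 was past 2-fold upward and Cxcl1 downward, of 14 compared. Tnf, at 453, 473 and 360 CPM, and Il1b, at 76.8, 61.0 and 43.5 CPM, were within 2-fold.

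Genes of the resting state were slightly lower. Of 14 homeostatic microglia genes, 13 were below a ratio of 1, with a median log2 ratio of -0.09. The list includes P2ry12, Tmem119 and Siglech, which define the gate. Of the 14, 13 lay between the isotype libraries, so that the median against IgG replicate 1 was 0.36. P2ry13 was at 183, 230 and 146 CPM, Fcrls at 99.4, 144 and 98.0, and Cx3cr1, the fractalkine receptor, at 1913, 1930 and 1478. Cell-cycle genes were below a ratio of 1 in 22 of 24, with a median log2 ratio of -0.20, and 21 lay below both isotype libraries (27.7% of all genes did), although none was past 2-fold.

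Of genes outside these lists, the naming rule took the 8 largest and 8 smallest ratios among genes of at least 50 CPM. On the high side it added Sema3c, a secreted semaphorin (79.2, 21.4 and 111 CPM, 3.69-fold), Arhgap15 (76.5, 29.9 and 59.6 CPM, 2.56-fold), Lgals3bp (222, 106 and 205 CPM, 2.10-fold) and Tgfbi (75.4, 37.7 and 94.99 CPM, 1.997-fold). Sema3c and Tgfbi were higher still in IgG replicate 1. On the low side were Ftl1, the ferritin light chain (2486, 4087 and 3600 CPM), Ubb (101.1, 163 and 223 CPM), Gpnmb (73.8, 125 and 34.4 CPM), A630089N07Rik (51.1, 81.7 and 78.8 CPM) and Gclm (44.4, 70.4 and 57.6 CPM), at 1.59-fold to 1.69-fold lower. Gpnmb and Gclm had 32.1% and 28.5% of their IgG replicate 2 UMIs in 1 cell. Ttr (83.9, 1265 and 5.05 CPM) and Enpp2 (13.3, 81.7 and 1.01 CPM), genes of the choroid plexus, had 86.4% and 87.5% of their IgG replicate 2 UMIs in 1 cell, so their ratios describe that cell.

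Over the whole myeloid gate, 2.94% of 13239 genes were past 2-fold upward and 0.589% downward. H2-Aa (308, 31.4 and 127 CPM, 9.82-fold), H2-Ab1 (334, 56.3 and 173 CPM, 5.94-fold) and Cd74 (840, 199 and 553 CPM, 4.22-fold) again led. The next genes included S100a6 (96.8, 30.9 and 599 CPM) and S100a4 (96.4, 36.4 and 353 CPM), calcium-binding proteins of infiltrating myeloid cells, and Ahnak (50.2, 19.6 and 161 CPM). The 12 upward ratios ran from 2.29 to 9.82, and for 5 of the 12 the CD40 value lay above both isotype libraries. The 3 genes just given were higher in IgG replicate 1. Its myeloid gate held a lower share of microglia-marker cells, and the part of that share in these levels was not tested. Flt1, a VEGF receptor of endothelium and some macrophages, was at 63.0, 27.5 and 18.6 CPM, and the endothelial marker sum in this gate was 179, 50.9 and 44.4 CPM. The 12 downward genes, 1.52-fold to 15.0-fold lower, were Ttr, Enpp2, Isg15, Gm41609, Lrrc3, Ubb, Hspa1a, Lyzl4, Fcrls, Ftl1, Sla and Klk8, and 3 of them lay below both isotype libraries.

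Myeloid cells without microglial markers were few, 119 under CD40, 46 in IgG replicate 2 and 57 in IgG replicate 1. Of the 6946 genes compared there, 8.09% were past 2-fold upward and 1.90% downward. This gate held 1923087 UMIs under CD40 and 539383 in IgG replicate 2. A gene lower under CD40 therefore reached the minimum UMI count over both libraries less readily than one higher. The part of this in the excess upward among these cells was not tested. The 3 main class II genes were higher in these cells than in microglia-marker cells of the same library, in all 3 libraries, and highest under CD40: H2-Aa was at 917, 337 and 229 CPM (2.72-fold), H2-Ab1 at 945, 417 and 392.0 (2.27-fold) and Cd74 at 2215, 1131 and 1331 (1.96-fold). Of 8 class II genes compared, 6 were above a ratio of 1 and 2 below, Ctss (2302, 2483 and 2421 CPM) and H2-DMa (108.7, 126 and 101.1 CPM). Cxcl9 had 146 UMIs under CD40 and 0 in IgG replicate 2, 13.7-fold higher against a floor of 3 counts, but was at 104 CPM in IgG replicate 1. Ccl5 had 93 UMIs against 0, 8.69-fold higher against the same floor, at 48.4 CPM under CD40 and 118 in IgG replicate 1. Chil3, a chitinase-like protein of monocytes (127, 18.5 and 168 CPM), and Il1rn, the interleukin 1 receptor antagonist (69.7, 7.42 and 165 CPM), were 6.87-fold and 9.40-fold higher than in IgG replicate 2 and lower than in IgG replicate 1. Tumour markers summed to 1702, 831 and 1738 CPM in these cells and endothelial markers to 582, 128 and 78.9 CPM, and their part in these ratios was not tested.

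Several chemokines were lower in these marker-negative cells. Ccl3 was at 269, 740 and 335 CPM, Ccl4 at 277, 920 and 910, and Ccl12 at 17.7, 163 and 1001. Tnf was at 111, 274 and 138 CPM. Each was lowest under CD40. Mrc1, at 54.6, 215 and 7.40 CPM, and Ccr2, at 92.6, 174 and 239 CPM, were also lower than in IgG replicate 2, and the CD40 value of Mrc1 lay between the isotype libraries. Of 22 cell-cycle genes, 21 were above a ratio of 1 and 15 lay above both isotype libraries (68.2%, against 42.7% of all genes). Past 2-fold were 5 (8.09% of all genes were). This direction was the reverse of that in microglia-marker cells. In the marker-negative gate 22 of the 24 cell-cycle genes listed reached the minimum UMI count, which genes higher under CD40 reached more readily. The part of that minimum in this direction was not tested.

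**Figure D4:**
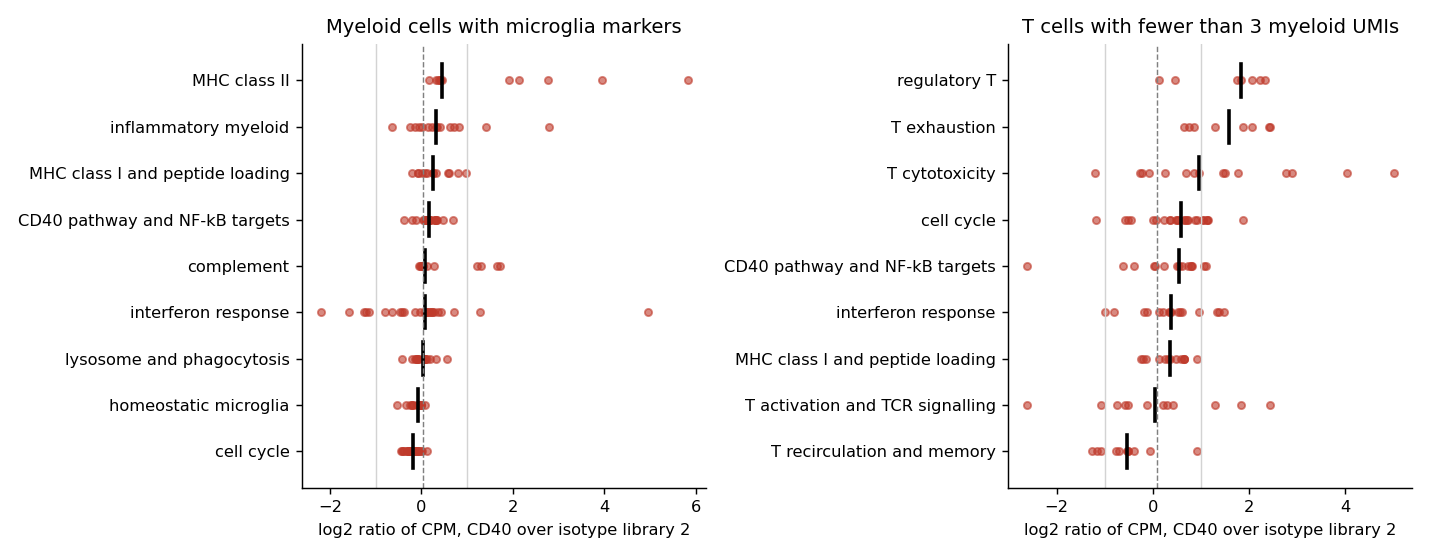
Log2 ratio of CPM, CD40 over IgG replicate 2 (horizontal axis), of the genes in each list in microglia-marker cells (left) and in T cells with fewer than 3 myeloid UMIs (right); points are genes, black bars list medians, the dashed line the median over all genes and grey lines 2-fold. Of the lists drawn, MHC class II has the highest median on the left, and on the right the regulatory and exhaustion lists lie highest and the recirculation list lowest.

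Many of the genes named in T cells are typical of other cells. A total of 13 of 158 CD40 T cells, against 1 of 53 in IgG replicate 2, had at least 3 UMIs of Lyz2, C1qa and C1qb, a median of 31319 UMIs and 30.3% of the gate's UMIs (2.25% in IgG replicate 2). Over the whole gate 6.87% of 7462 genes were past 2-fold upward and 0.925% downward. The upward genes named by the rule were led by the myeloid genes Lyz2 (543, 6.80 and 586 CPM), Lrmda (92.0, 2.27 and 61.0 CPM), Spp1 (513, 15.9 and 6.10 CPM, 59.1% of the CD40 UMIs in 1 cell), Cd74 (382 UMIs against 0) and Apoe (1321, 68.0 and 24.4 CPM). The other 7 of the 12 were Gzma, Ccl3, Eomes, Fabp7, Fcer1g, H2-Ab1 and Cxcl2, and the 12 ratios ran from 9.14 to 79.9. Those of Cd74, Gzma, H2-Ab1 and Cxcl2, at 0 UMIs in IgG replicate 2, are set against a floor of 3 counts. The 12 downward genes, 3.03-fold to 12.2-fold lower, included Rgs5, Vtn and Mgp, genes of mural and perivascular cells, all of whose IgG replicate 2 UMIs were in 1 cell. The others were C77080, Clec14a, Slc30a6, Csmd3, Nkain2, St6gal1, Emcn, Ccr7 and Cd40lg. Csmd3 and Nkain2 also had all their IgG replicate 2 UMIs in 1 cell, and Slc30a6 and C77080 had 95.7% and 89.6% in 1 cell. The T gate held 2141003 UMIs under CD40 and 441203 in IgG replicate 2, so a gene lower under CD40 reached the minimum of 50 UMIs less readily than one higher. With a minimum set on mean CPM instead (at least 50), chosen after the data were seen, 2.45% of 3627 genes were past 2-fold upward and 0.827% downward.

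The CPM values of T cells below therefore leave out cells with 3 or more myeloid UMIs, a choice also made after the data were seen, while counts of cells with a given UMI are of the whole gate of 158, 53 and 37. This left 145, 52 and 36 cells. Of the 6118 genes compared there, 5.51% were past 2-fold upward and 0.981% downward. The 12 genes named upward there, with ratios of 7.23 or more, included Gzma, Cd74 and Serpinb6b. All 3 were at 0 UMIs in IgG replicate 2, so their ratios are set against a floor of 3 counts. Cd74 had 85.0% of its CD40 UMIs in 1 cell, and was at 75.7 CPM under CD40 and 347 in IgG replicate 1. Also named were Tyrobp (89.2, 6.96 and 189 CPM) and Ncr1 (56.3, 4.64 and 63.1 CPM), an adaptor and an activating receptor of NK cells. Both were higher still in IgG replicate 1. The rest of the 12 were Eomes, Chn2, Hist1h2ae, Cdh13 (50.9, 2.32 and 0 CPM), Igfbp5 (85.1, 9.27 and 25.3 CPM), Syt11 (50.3, 6.96 and 18.9 CPM) and Fabp7 (50.9, 6.96 and 6.31 CPM). Fabp7 is in the tumour marker list. Cdh13 and Fabp7 had 46.1% and 48.7% of their CD40 UMIs in 1 cell. The part of other cells in these levels was not tested. The median UMI count of all T cells was 6202, 4062 and 3466. In the whole gate, cells with at least 2 UMIs of Mki67 and Top2a numbered 47, 7 and 8. They held 68.1%, 55.7% and 41.8% of the gate's UMIs, so the summed levels weigh these few cells heavily. Cells with an Rgs5 UMI, 9 under CD40 and 1 in IgG replicate 2, held 27.1% and 6.79%.

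Effector genes differed unevenly. Gzma, granzyme A, had 335 UMIs in 29 cells under CD40 and 0 in IgG replicate 2, or 225, 0 and 101.0 CPM. This is 32.3-fold higher against a floor of 3 counts (lower limit of the interval 26.1), with 40.0% of the CD40 UMIs in 1 cell. Eomes, a transcription factor of effector and exhausted CD8 T cells and natural killer (NK) cells, was at 76.4, 4.64 and 88.4 CPM (16.5-fold, interval 4.46 to 138). The lectin-like receptors Klrd1 (134, 39.4 and 107 CPM) and Klrk1 (110, 16.2 and 196 CPM) were 3.40-fold and 6.77-fold higher, and Nkg7 (606, 216 and 783 CPM) 2.81-fold. Eomes, Klrk1 and Nkg7 were higher still in IgG replicate 1. Gzmb (57.6, 48.7 and 139 CPM) and Prf1, perforin (26.1, 27.8 and 56.8 CPM), were within 2-fold, and Ifng, interferon gamma, was 2.31-fold lower (24.1, 55.6 and 37.9 CPM). Of 15 cytotoxicity genes, 7 were past 2-fold upward and 1 downward, with a median log2 ratio of 0.96 against 0.10 over all genes, while 4 lay above and 4 below both isotype libraries, where 40.8% of all genes lay above both and 17.2% below both. Over the whole gate and against IgG replicate 1, the median was -0.79, with 1 gene past 2-fold upward and 6 downward. The 8 NK marker genes summed to 546, 62.6 and 568 CPM in these T cells, with Klra8 and Gzma at 0 in IgG replicate 2 and Klra8 at 0 in IgG replicate 1, and their part in the list was not tested.

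Genes of chronically stimulated T cells were higher than in IgG replicate 2. Tox, the exhaustion-associated factor, was at 392.1, 107 and 177 CPM (3.68-fold), and Ctla4, an inhibitory receptor, at 214, 51.0 and 107 CPM (4.19-fold). Tnfrsf9, the costimulatory receptor 4-1BB, was at 75.1, 13.9 and 56.8 CPM (5.40-fold), and Entpd1, the ectonucleotidase CD39, at 62.3, 25.5 and 44.2 CPM (2.44-fold). Pdcd1, which encodes PD-1, had 48 UMIs over the 2 libraries, under the minimum, at 29.5, 9.27 and 18.9 CPM (3.18-fold, interval 1.16 to 12.2). All 5 were highest in the CD40 library, although over the whole T gate the ratio of Tnfrsf9 to IgG replicate 1 was 0.986. Of 8 exhaustion genes compared, 5 were past 2-fold upward and 6 lay above both isotype libraries (40.8% of all genes did), with a median log2 ratio of 1.58. Over the whole T gate 5 of 9 were past 2-fold and the median was 1.42, while against IgG replicate 1 there were 0 of 9 and a median of 0.41 (0.31 over all genes).

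Regulatory T-cell genes were higher than in IgG replicate 2. Il2ra, the interleukin 2 receptor alpha chain, was at 85.1, 25.5 and 50.5 CPM (3.34-fold), and Ikzf2, the factor Helios, at 379, 81.2 and 69.4 CPM (4.68-fold). Foxp3, the lineage factor, had 29 UMIs against 1, or 19.4, 2.32 and 25.3 CPM, so the CD40 value lay between the isotype libraries. In the whole gate a Foxp3 UMI was seen in 16 of 158 CD40 T cells (10.1%), 1 of 53 (1.89%) and 2 of 37 in IgG replicate 1. With cells thinned to 2000 UMIs it was seen in 4.55%, 0 of 51 and 6.67%. Of 7 regulatory genes, 5 were past 2-fold upward and 4 lay above both isotype libraries (57.1%, against 40.8% of all genes), with a median log2 ratio of 1.82. Against IgG replicate 1, over the whole gate, the median was 0.31, as over all genes, with 1 gene past 2-fold upward and 2 downward. Ctla4 is counted in this list and in the exhaustion list.

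Genes of naive and recirculating T cells were lower. Il7r, the interleukin 7 receptor, was at 130, 313 and 189 CPM (2.41-fold lower), and Ccr7, the lymph node homing receptor, at 22.8, 51.0 and 25.3 CPM (2.24-fold lower). S1pr1, needed for exit from lymphoid tissue, was at 55.6, 118 and 37.9 CPM (2.13-fold lower), and Tcf7 (85.1, 139 and 69.4 CPM) and Lef1 (169, 285 and 114 CPM) were 1.63-fold and 1.69-fold lower. For S1pr1, Tcf7 and Lef1 the CD40 value lay between the isotype libraries. Of 11 recirculation and memory genes, 10 were below a ratio of 1, 3 were past 2-fold downward and 7 lay below both isotype libraries (17.2% of all genes did), with a median log2 ratio of -0.54.

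The ligand of the targeted receptor was lower. Cd40lg, on the X chromosome at 57212143 to 57224042 on the plus strand, was at 12.1 CPM under CD40 (18 UMIs in 10 cells), 74.2 in IgG replicate 2 (32 UMIs in 11 cells) and 18.9 in IgG replicate 1 (3 UMIs), 6.15-fold lower than in IgG replicate 2 (interval 3.35 to 11.6). The value in IgG replicate 1 was close to that under CD40 and rests on 3 UMIs. A Cd4 UMI and no Cd8 UMI were found in 26 of 158 CD40 T cells (16.5%, interval 11.04 to 23.2), 13 of 53 in IgG replicate 2 (24.5%, interval 13.8 to 38.3) and 4 of 37 in IgG replicate 1 (10.8%). The intervals of the 2 libraries compared overlap, and the part of this share in the level of Cd40lg was not tested.

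Cells with a UMI of Cd8a or Cd8b1 and none of Cd4 were 65 of 158 (41.1%, interval 33.4 to 49.2) under CD40, 10 of 53 (18.9%, interval 9.44 to 32.0) in IgG replicate 2 and 11 of 37 (29.7%) in IgG replicate 1. Thinned to 2000 UMIs, the shares were 27.9%, 11.8% and 26.7%. At matched depth the interval under CD40 (21.0 to 35.7) overlapped that of IgG replicate 2 (4.44 to 23.9), and the share was near that of IgG replicate 1. Gzma was seen in 29 of 158 T cells (18.4%), 0 of 53, which allows a share of up to 5.66% of cells with a UMI by a limit of 3 counts (exact upper bound 6.72%) at the lower depth of that library, and 3 of 37 (8.11%), and, thinned, in 11.7%, 0 of 51 and 6.67%. The NK receptors Klrb1c or Ncr1 were seen in 20 of 158, 2 of 53 and 3 of 37 T-gate cells, so some of this gate carried NK-cell transcripts.

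Proliferation genes were mostly higher. Mki67 was at 260, 158 and 234 CPM and Top2a at 638, 450 and 202 CPM, while the replication factor Mcm6 was at 61.7, 139 and 101.0 CPM. Of 24 cell-cycle genes, 18 lay above both isotype libraries (40.8% of all genes did), 6 were past 2-fold upward and 1 downward, with a median log2 ratio of 0.58. At least 2 UMIs of Mki67 and Top2a were found in 47 of 158 T cells (29.7%), 7 of 53 (13.2%) and 8 of 37 (21.6%), and, thinned, in 15.6%, 3.92% and, in IgG replicate 1, 6 of 30 cells. The thinned share under CD40 therefore lay below that of IgG replicate 1. Isg15 in T cells was at 83.8, 167 and 770 CPM, the same order as in microglia-marker cells, but the interferon list did not follow it. Of 16 interferon genes compared, 12 were above a ratio of 1 and 4 below, with a median log2 ratio of 0.37 (0.10 over all genes). Past 2-fold were 3 upward (Gbp2, Iigp1 and Cxcl10, where 5.51% of all genes were) and 0 downward. Beside both isotype libraries, 3 lay above and 4 below, where 40.8% and 17.2% of all genes did. Tumour markers summed to 1514 and 907 CPM in these T cells of the 2 libraries compared, and their part in the proliferation genes was not tested.

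**Figure D5:**
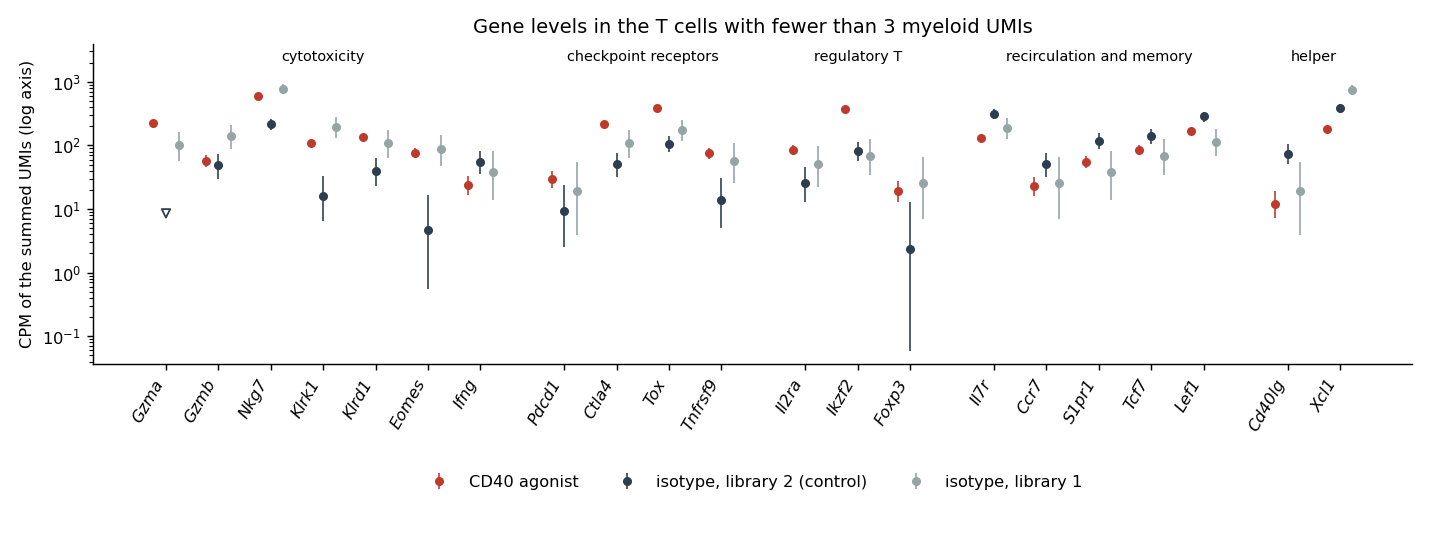
CPM of summed UMIs in T cells with fewer than 3 myeloid UMIs (vertical axis, log scale) for single genes in the CD40 library and the 2 isotype libraries; points are levels, lines exact 95% Poisson intervals, and the open triangle the upper bound of a gene at 0. Tox, Ctla4, Tnfrsf9 and Ikzf2 are highest in the CD40 library, and Il7r, Ccr7 and Cd40lg are lowest there.

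B cells could be described in the CD40 library but not compared, since IgG replicate 2 held 9 and IgG replicate 1 held 1. Of 55 CD40 cells in the gate, 53 had a UMI of Ebf1 and 47 of Pax5, both B-lineage factors, 51 of Ms4a1 (CD20) and 50 of Cd79b. Ighm was seen in 42 and Ighd in 14, at 1236 and 24.7 CPM. Plasma-cell genes were rare, with Jchain in 1 cell and Sdc1 in 3. Mki67 was seen in 12 cells.

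These 55 cells carried the class II programme at a high level, with Cd74 at 4606 CPM, H2-Aa at 1898, H2-Ab1 at 1668 and Ciita at 182. Cd40 itself was at 48.1 CPM, against 4.19 CPM in the microglia-marker cells of the same library. Of 20 genes of B-cell activation and 24 of the CD40 and NF-kB list, 16 and 20 had at least 10 UMIs in these cells. That low cut did not set the 2 lists apart, since 24 of 24 cell-cycle, 16 of 16 follicular and 11 of 11 class II genes passed it. Fewer passed in the plasma-cell (11 of 15) and costimulation lists (5 of 10). Examples were Cd69 at 282 CPM, Cd86 at 216, Cd83 at 149, Traf1 at 71.5, Nfkb2 at 62.4 and Fas at 59.8. Markers of microglia summed to 803 CPM in this gate, those of tumour cells to 916 and those of endothelium to 437, and Cd86 was at 347 CPM in microglia-marker cells, so the part of other cells in these values was not tested. Fcer2a (CD23), at 121 CPM, and Cr2, at 44.2 CPM, mark mature follicular B cells. Of the 9 gated cells of IgG replicate 2, 5 had a Ms4a1 UMI, and 4 had at least 2 UMIs of P2ry12 and Tmem119, as had 4 of the 55 CD40 cells.

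Leukocytes in none of the 3 gates were 166 under CD40 (11.9%), 73 in IgG replicate 2 (8.77%) and 97 in IgG replicate 1 (32.1%). At least 3 UMIs of the NK receptors Ncr1, Klrb1c, Klre1 and Klra8 were found in 50 of them under CD40 (3.57% of leukocytes, interval 2.66 to 4.68), 15 in IgG replicate 2 (1.80%, interval 1.01 to 2.96) and 23 in IgG replicate 1 (7.62%), so the CD40 share lay between the isotype libraries. At least 3 UMIs of Ccr7, Fscn1 and Ccl22 together, genes of migratory dendritic cells, were found in 32, 18 and 6 ungated cells. Most of this signal was Fscn1, at 109.9, 118 and 40.2 CPM in ungated leukocytes and 124, 131 and 52.1 CPM in non-leukocytes, so the count is not one of dendritic cells. Conventional dendritic markers were found in 9, 5 and 3 cells and neutrophil markers in 5, 2 and 3. At least 3 UMIs of tumour markers were found in 68 of the 166 ungated CD40 cells and 41 of the 73 in IgG replicate 2.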

How the data were processed

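Droplet 3′ RNA libraries of whole NSCG tumours were analysed from the UMI counts per gene and barcode deposited by the authors for all barcodes; the matrices hold raw counts, and per the file headers they were written by Cell Ranger 4, while the submitters' processing notes name Cell Ranger 7.0.1 and mm10. The labels give V2 chemistry. Cells were filtered and gated as stated in the report. UMIs were summed over the cells of a gate and library and scaled to CPM, and the ratio of CD40 to IgG replicate 2 was given for genes with at least 50 UMIs over both libraries, with exact conditional intervals for ratios, exact Poisson intervals for levels and Clopper-Pearson intervals for shares (95%). A gene was counted as past the fold at 2-fold, and a gene at 0 was set against 3 counts. Free RNA was estimated from droplets of barcode ranks 20000 to 60000. Barcodes outside the filter were left out, and the other 4 libraries give values beside a result only. Intervals and floors cover counting error only.

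Genes were named by a rule: at least 50 CPM in the higher library, an estimated free RNA share under 10%, no mitochondrial or ribosomal protein gene, and the 12 largest and 12 smallest ratios in myeloid and T cells (8 in microglia-marker cells), with Cd40, Cd40lg and list members used as examples. The members, the 23 gene lists and the 12 marker lists were chosen with earlier results of these data known. Doublets were not removed in the main values; Scrublet scores (scanpy 1.11.5) served as an alternative, which took 25 of 158 CD40 T cells, 6 of 53 isotype T cells, and 98 and 59 myeloid cells. Other alternatives were TMM scaling (edgeR 4.0.16 in R 4.3.3), thinning to 1000 UMIs, other gates and minimums, free RNA subtraction and IgG replicate 1 as control. Scripts ran in Python 3.11.15 with numpy 2.4.6, scipy 1.17.1, pandas 2.3.3 and matplotlib 3.10.9 and were tested on simulated data. Positions are from GENCODE on GRCm38, where all 68 named genes were found, and promoters from the RefSeq table on GRCm38.p6. Some measured B-cell genes are not reported here.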

Additional observations from a re-analysis of the deposited data

How the results depend on the processing

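With 1 library a group no library could be left out. No paired analysis was possible because each group compared is 1 library. Over the alternatives run, 854 values stayed within their own interval, or within 1.5 times for counts and list medians, 207 moved beyond that, and 55 turned direction from a value set apart from no difference, most of these with IgG replicate 1 as the control. TMM scaling, free RNA subtraction and stricter cell filters turned none.

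The leukocyte share was higher by 6.42 percentage points under CD40, by 3.27 with cells thinned to 1000 UMIs and by 12.0 against IgG replicate 1. The T share of leukocytes differed by 4.92 points, 2.77 thinned (interval -1.64 to 6.70), -0.958 against IgG replicate 1 and 1.24 as a share of all filtered cells. The B share differed by 2.85 points, 1.18 with no Ptprc requirement, 0.548 as a share of all filtered cells and -0.00907 thinned, where few cells keep 2 Cd79a UMIs. The myeloid share differed by -11.1 points, -6.88 with no Ptprc requirement, 17.8 against IgG replicate 1 and 3.54 as a share of all filtered cells. The microglia-marker share of myeloid cells differed by -5.07 points, -16.1 thinned and 22.5 against IgG replicate 1.

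Genes past 2-fold upward in myeloid cells numbered 389, and 27 thinned (5 shared) and 1399 against IgG replicate 1 (154 shared). With other minimums they numbered 812 (at least 20 UMIs), 224 (at least 100) and 9 (a mean of at least 50 CPM). Those downward numbered 78, and 12 (0 shared), 452 (12 shared), 213, 37 and 2, with 132 (6 shared) in other myeloid cells alone. In T cells 513 were past 2-fold upward, and 5, 1520 (204 shared), 1113, 195 and 89, with 337 in T cells of fewer than 3 myeloid UMIs and 451 of 4235 genes (148 shared) without the highest Scrublet scores. Those downward numbered 69, and 2, 256 (14 shared), 209, 25 and 30, with 53 (17 shared) without those scores.

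Medians near 0 that changed sign against IgG replicate 1 included those of MHC class I (0.24 to -0.26) and homeostatic genes (-0.09 to 0.36) in microglia-marker cells, and the interferon median was -0.06 without the highest Scrublet scores and -0.07 in the stricter gate. Against IgG replicate 1 the median log2 ratio was -1.28 for interferon genes in microglia-marker cells (0.07 against IgG replicate 2), 0.41 for exhaustion (1.42), -0.79 for cytotoxicity (0.60) and 0.31 for regulatory genes (1.37) in T cells, where it was 0.31 over all genes. For cell-cycle genes in T cells it was 1.89 without the highest Scrublet scores (0.61).

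Ratios that turned against IgG replicate 1 were, in myeloid cells, Sema3c 0.750, S100a6 0.162, S100a11 0.337, S100a4 0.273, H2-Q7 0.863, Ahnak 0.313, Arhgap15 0.841, Ttr 16.6, Enpp2 18.9, Gm41609 1.30, Lrrc3 1.61, Hspa1a 2.32, Lyzl4 1.19, Fcrls 1.15, Sla 1.21 and Klk8 2.50. In microglia-marker cells they were Sema3c 0.712, Tgfbi 0.793, Ttr 16.6, Enpp2 13.1 and Gpnmb 2.15. In T cells they were Lyz2 0.927, Cd74 0.531, Eomes 0.629, Fcer1g 0.518, Rgs5 1.81, Vtn 1.84, Emcn 1.63, Tnfrsf9 0.986, Klrk1 0.434, Klrd1 0.995, Nkg7 0.579, S1pr1 1.16, Lef1 1.16, Foxp3 0.631 and Cd8a 0.492. A Cd3 minimum of 4 turned Slc30a6 (4.33) and Nkain2 (2.41), and fewer than 3 myeloid UMIs turned Lyz2 in T cells (0.675). A minimum of 10 microglial UMIs turned Ttr (3.04) and Enpp2 (2.51). Thinning turned Ttr in myeloid (4.28) and microglia-marker cells (4.01), Gm41609 (1.55), Hspa1a (1.33), Sla (1.13) and Xcl1 in T cells (1.31). Other myeloid cells alone turned Sla (1.31) and Klk8 (2.12). The cause was not tested.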

Other observations

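In myeloid cells without microglial markers, 12 of 18 immediate-early and heat-shock genes lay below both isotype libraries (18.6% of all genes did), among them Fos, Egr1, Ier2, Atf3 and Zfp36, and the median log2 ratio was -0.45, while 3 were past 2-fold downward (Atf3, Hspa1a and Hspa1b). In microglia-marker cells, 13 of the 18 were above a ratio of 1, 0 were past 2-fold and the median was 0.15. The difference between the 2 kinds of cell was not tested. These genes are known to respond to tissue digestion as well as to signalling, and the part of handling was not tested.

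Replication-dependent histone genes, whose transcripts mark cells in S phase, were higher than in IgG replicate 2 in the same marker-negative myeloid cells, with 4 of 7 past 2-fold upward (Hist1h1a, Hist1h1b, Hist1h2ab and Hist1h3c) and a median log2 ratio of 1.34, against -0.17 over 13 such genes in microglia-marker cells. Of all genes in the marker-negative cells 8.09% were past 2-fold upward. Of the 7, 2 (28.6%) lay above both isotype libraries, where 42.7% of all genes did. In these cells 7 of the 15 histone genes listed reached the minimum UMI count, which genes higher under CD40 reached more readily. Among T cells with fewer than 3 myeloid UMIs, Xcl1, a chemokine that recruits cross-presenting dendritic cells, was at 180 CPM under CD40, 383 in IgG replicate 2 and 745 in IgG replicate 1. Chn2 was at 144, 16.2 and 63.1 CPM there, in 58 cells of the CD40 library and 5 of IgG replicate 2.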
